A study of Arabidopsis thaliana with 6 samples.

Results

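The genes described here are 8 closely related auxin response factor (ARF) genes of *Arabidopsis thaliana* chromosome 1, *ARF12*, *ARF13*, *ARF14*, *ARF15*, *ARF20*, *ARF21*, *ARF22* and *ARF23*. They were taken by their locus identifiers and are 8 of the 32678 genes in the table. RNA of whole seeds was sequenced for 2 genotypes, with 3 biological replicates each. The *agl62* seeds came from homozygous mutants in the MADS-box gene *AGL62*, which is needed for the endosperm to keep its syncytial phase, and the labels write the genotype as *agl62*/-. They were set against WT seeds, whose strain is not given for these libraries in the sources used here. In both genotypes flowers were emasculated and pollinated by hand, and the seeds were collected 30 hr later. Homozygous mutants are uncommon and set little seed, and each library pooled seed coat, endosperm and embryo.

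Auxin response factors are transcription factors that bind auxin response elements in the promoters of auxin-regulated genes. When auxin is low, Aux/IAA proteins bind to ARF proteins and hold their targets silent; auxin lets the TIR1/AFB receptors mark the Aux/IAA proteins for destruction. ARF proteins with a glutamine-rich middle region, such as ARF5, activate transcription, whereas those related to ARF1, ARF2 and ARF9 mostly repress it. The 8 genes of chromosome 1 belong to the second kind, and in *Arabidopsis* they are known mainly as genes of developing seeds, and they can be called seed-type ARF genes for that reason. No separate function is assigned to any single one of them here.

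The 8 genes had almost no counted reads in these seeds, in both genotypes. Only uniquely mapping reads were kept, so reads that fit more than 1 of these genes are not in the values. In *agl62* and in WT seeds alike, *ARF12*, *ARF13*, *ARF15*, *ARF21*, *ARF22* and *ARF23* were listed at 0. *ARF14* was the only one of the 8 with reads in both genotypes, at a mean of 0.291 normalized counts in *agl62* seeds and 3.48 in WT seeds. *ARF20* was listed at 0 in *agl62* seeds and at 0.81 in WT seeds. Only whole seeds at 30 hr were sequenced, so whether the 8 genes have a seed-type pattern could not be judged. They are called the chromosome 1 ARF genes here. By contrast, each of the 15 other ARF genes of the genome had a mean of at least 219 in *agl62* seeds and at least 248 in WT seeds.

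The position and sequence of the genes show how alike they are. On chromosome 1 of TAIR10.1, 7 of them lie within 668 kb. From left to right these are *ARF13* (AT1G34170, 12443547 to 12446764, minus strand), *ARF12* (AT1G34310, 12508548 to 12511520, minus), *ARF22* (AT1G34390, 12556005 to 12559082, plus), *ARF21* (AT1G34410, 12577722 to 12580824, plus), *ARF20* (AT1G35240, 12927303 to 12930523, minus), *ARF15* (AT1G35520, 13082819 to 13085830, minus) and *ARF14* (AT1G35540, 13108634 to 13111700, plus). *ARF23* (AT1G43950, 16672582 to 16673952, minus) lies 3.56 Mb further along. Each of the 7 has 14 exons and between 1641 and 1821 coding bases, while *ARF23* has 8 exons and 669 coding bases. RefSeq annotates 154 untranslated bases for *ARF20* and none for the other 7, and 3 transcripts for *ARF13* against 1 for each of the others.

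Reads that fit more than 1 gene are lost when only uniquely mapping reads are kept. The stretch that is most alike, by its differences from *ARF14*, is therefore shown first, for the 7 genes that lie together. It is 100 bases of coding sequence, which is the read length, given 5′ to 3′ in the direction of transcription. Capitals mark bases that differ from *ARF14*. The stretches are chr1:13108761-13108860 (*ARF14*, plus strand), chr1:13085598-13085697 (*ARF15*, minus), chr1:12930292-12930391 (*ARF20*, minus), chr1:12556136-12556235 (*ARF22*, plus), chr1:12511291-12511390 (*ARF12*, minus), chr1:12577853-12577952 (*ARF21*, plus) and chr1:12446522-12446621 (*ARF13*, minus) of TAIR10.1.
ARF14: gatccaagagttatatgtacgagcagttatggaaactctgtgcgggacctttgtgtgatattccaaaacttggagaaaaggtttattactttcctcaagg
ARF15: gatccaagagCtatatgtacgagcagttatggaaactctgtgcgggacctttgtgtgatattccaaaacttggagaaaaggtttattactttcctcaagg
ARF20: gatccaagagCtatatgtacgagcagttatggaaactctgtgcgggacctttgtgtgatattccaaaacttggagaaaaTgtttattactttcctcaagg
ARF22: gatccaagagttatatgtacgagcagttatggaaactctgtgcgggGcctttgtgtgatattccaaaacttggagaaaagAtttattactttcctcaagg
ARF12: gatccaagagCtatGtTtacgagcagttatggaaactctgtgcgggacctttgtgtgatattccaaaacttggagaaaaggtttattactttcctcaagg
ARF21: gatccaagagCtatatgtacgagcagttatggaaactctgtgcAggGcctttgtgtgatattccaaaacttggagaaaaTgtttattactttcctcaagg
ARF13: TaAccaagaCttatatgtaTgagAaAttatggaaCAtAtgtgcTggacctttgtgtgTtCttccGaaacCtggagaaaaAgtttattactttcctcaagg
*ARF15* differs from *ARF14* at 1 of the 100 bases, *ARF20* and *ARF22* at 2, *ARF12* at 3 and *ARF21* at 4. *ARF13* differs at 15. All 7 sequences differ from each other, so an exact read of this full stretch would tell the 7 genes apart. This does not hold for every stretch of 100 bases. Exact copies of that length were shared at 123 positions of *ARF15* with *ARF21* and at 22 positions of *ARF14* with *ARF22*.

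The stretch that is least alike lies in the middle of the coding sequence, and a few genes show it. These are chr1:13110645-13110744 of *ARF14* (plus strand), chr1:12928436-12928535 of *ARF20* (minus) and chr1:12444754-12444853 of *ARF13* (minus), with capitals again for bases that differ from *ARF14*.
ARF14: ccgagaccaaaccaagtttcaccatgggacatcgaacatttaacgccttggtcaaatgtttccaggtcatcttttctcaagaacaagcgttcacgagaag
ARF20: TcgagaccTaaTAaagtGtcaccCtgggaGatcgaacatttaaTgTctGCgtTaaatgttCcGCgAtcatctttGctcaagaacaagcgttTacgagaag
ARF13: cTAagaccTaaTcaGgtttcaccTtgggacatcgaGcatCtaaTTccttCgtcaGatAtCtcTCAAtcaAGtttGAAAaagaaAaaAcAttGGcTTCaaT
Here *ARF20* differs from *ARF14* at 18 bases and *ARF13* at 33. The 4 genes not printed differ at 17 to 19 bases.

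Across whole coding sequences, identity between the 8 genes had a median of 93.5% over the 28 pairs. The closest pair was *ARF20* and *ARF21* at 97.1%. *ARF13* stood apart from the rest, with 73.3% identity to *ARF21* and to *ARF23*, the lowest value among the 28 pairs. Of the other ARF genes, *ARF9*, whose product acts in the suspensor of the embryo, was the nearest relative, with 66.5% to 68.2% identity to the 8 genes. *ARF1* and *ARF2*, which act together in floral organ senescence, had medians of 55.0% and 55.2% to them. Over all 15 other ARF genes identity to the 8 ran from 42.8% (*ARF12* with *ARF17*) to 68.2% (*ARF23* with *ARF9*).

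**Figure D1:**
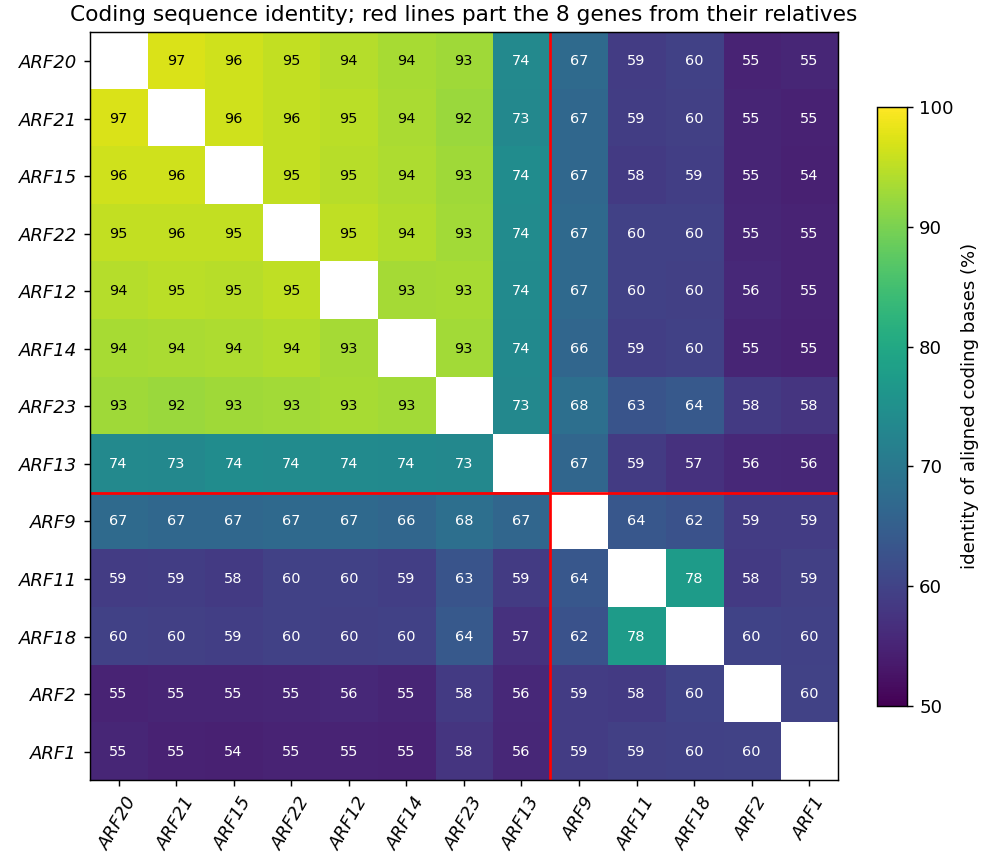
Percent identity of aligned coding bases for the 8 chromosome 1 ARF genes and 5 relatives, each cell a pair of genes and colour running from 50% to 100%. Among the 8 genes the pairs lie near the median of 93.5%, except those of *ARF13*, and the closest relative outside them is *ARF9* at 66.5% to 68.2%.

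Exact copies at the read length covered only a small part of each transcript. A window of 100 bases was slid along each spliced transcript, and the share of windows with an exact copy elsewhere in the genome was counted. *ARF21* had the highest share at 12.2%, or 210 of 1722 windows. *ARF15* had 7.31% (123 of 1683 windows), *ARF20* 6.76% (124 of 1834), *ARF22* 3.89% (66 of 1698) and *ARF12* 3.39% (57 of 1683). *ARF14*, which had most of the reads, had a share of 1.28% (22 of 1719), all of them in *ARF22*. *ARF13* had no such window in 1542 and *ARF23* none in 570. Every exact copy of a window lay in another of the 8 genes. The median share was 3.64%, against 26.9% with exact windows of 50 bases and 43.3% when up to 2 mismatches in 100 bases were allowed, a setting added after the data were seen. With 2 mismatches allowed, more than 50% of the windows of *ARF15* (50.5%), *ARF20* (53.9%), *ARF21* (59.8%) and *ARF22* (51.2%) had a copy, and 36.1% of those of *ARF14*. *ARF13* had no copy under any of the 3 settings and was listed at 0 in both genotypes. It is 1 gene that stands apart in sequence, so it does not speak for the genes with copies.

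**Figure D2:**
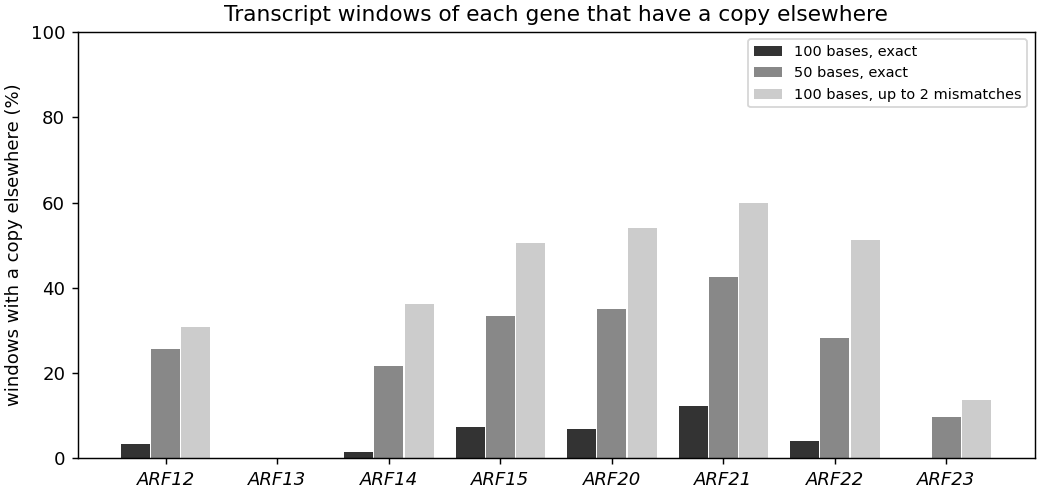
Share of transcript windows (%) with a copy elsewhere in the genome for each of the 8 genes, with bars for exact windows of 100 bases, exact windows of 50 bases, and windows of 100 bases with up to 2 mismatches. Exact windows of 100 bases stay at or under 12.2%, while the median is 43.3% with up to 2 mismatches and 3.64% without, and *ARF13* has none.

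Over the genome as a whole, genes with such copies were more often listed at 0 than genes without, and most genes of both kinds had reads. Among protein-coding genes with no copied window, 10.2% of 25073 were listed at 0 in both genotypes. The share was 14.2% of 938 genes whose copied windows did not exceed those of *ARF21*, and 23.8% of 193 genes with copies for at least 90% of their windows. Among the 8 ARF genes, 6 were at 0, which is 75%. The background is 10.6% of all protein-coding genes and 23.5% of all identifiers in the table. The part of shared sequence in the 0 values of the 6 genes was not tested beyond these counts.

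The columns used here give the mean of 3 libraries and no single library, so no SD is given and no difference between the genotypes was tested here. The low means could be taken apart, because a single count in a given library changes the mean by a fixed step. In *agl62* these steps were 0.256, 0.291 and 0.315, and in WT 0.242, 0.326 and 0.731. All 1737 *agl62* means and all 1522 WT means between 0 and 1 were sums of whole numbers of these steps, to within 0.0007. Such sums can make 22 of the 900 three-digit values from 0.1 up to 1 in *agl62* and 19 of them in WT. Relative depths, with 1 as the typical library, were 1.3, 1.15 and 1.06 in *agl62* and 1.38, 1.02 and 0.456 in WT, so the shallowest library was a WT library. At this depth, a gene at 0 counts in all 3 libraries was given a limit, a mean of 0.855 in *agl62* seeds and 1.05 in WT seeds. These values are 3 counts divided by the summed relative depth of the 3 libraries, 3.51 in *agl62* and 2.85 in WT. They are the limits used for every gene at 0. These limits, like all intervals given here, cover counting error only.

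*ARF14* in *agl62* seeds was a single count. It fell in the library of relative depth 1.15, with a normalized value of 0.872 there and 0 in the other two. In WT seeds the mean of 3.48 can be made in 4 ways, from 10, 12, 13 or 14 counts. With 10 counts the WT libraries had normalized values of 5.09, 0.977 and 4.39, from deepest to shallowest. With 12 counts these were 7.27, 0.977 and 2.19. The deepest WT library held at least 7 counts in each of the 4 ways.

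Whether the genotypes overlapped for *ARF14* depends on the way. With 13 counts the WT libraries had values of 6.54, 3.91 and 0, and with 14 counts 9.45, 0.977 and 0, so that in 2 of the 4 ways the shallowest WT library was no higher than the *agl62* libraries. In the other 2 ways the lowest WT value, 0.977, lay above the highest *agl62* value, 0.872, and both are a single count. In *agl62* seeds the *ARF14* mean was 8.36% of that in WT seeds, a ratio of 0.0836 with a 95% counting interval of 0.00137 to 0.572. Its log2 ratio, with 1 added to each mean, was -1.80. In bulk seeds, fewer cells of a type and less RNA per cell cannot be told apart.

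*ARF20* had no count in *agl62* seeds and 3 counts in WT seeds. Its WT counts fell as 2, 1 and 0 in the libraries from deepest to shallowest, which are normalized values of 1.45, 0.977 and 0. Both means were under the limit used for a gene at 0, so no fold change is given for *ARF20*. The genotypes share the value 0 and overlap.

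**Figure D3:**
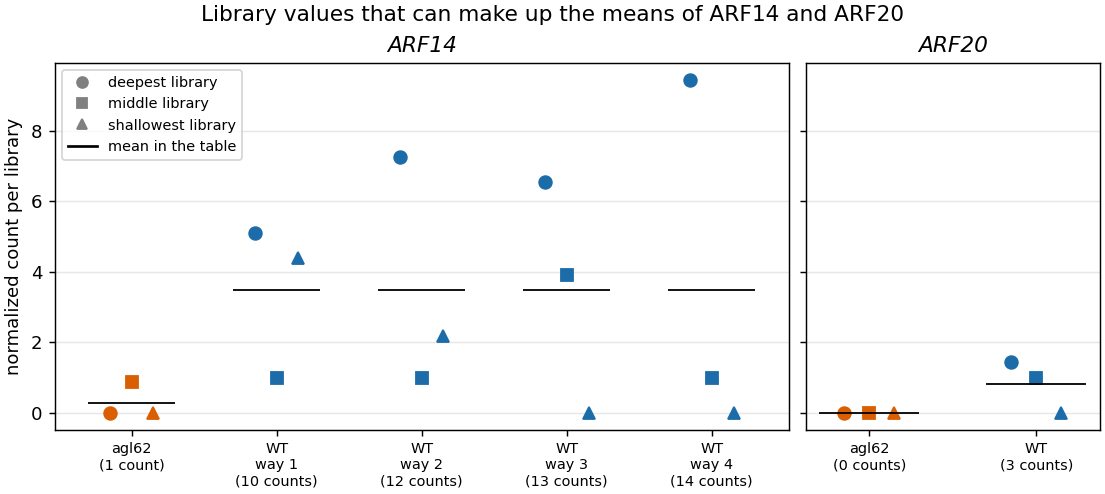
Normalized counts per library that can make up the means of *ARF14* (left) and *ARF20* (right), with *agl62* left of WT, symbols for the deepest, middle and shallowest library and a line at the mean. *ARF14* has a single count in *agl62* and 4 possible sets of WT values, which reach 0 in 2 of them; *ARF20* has 0 counts in *agl62* and 3 in WT.

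Ordered by WT level, *ARF14* stood first, *ARF20* next, and the 6 others shared 0. The 95% Poisson interval of the WT mean was 1.68 to 8.23 for *ARF14* and 0.217 to 3.07 for *ARF20*, and the limit of a gene at 0 was 1.05, so that neighbours in this order were not separated by counting error. In *agl62* seeds the interval was 0.00721 to 1.59 for *ARF14*, and the limit of the 7 genes at 0 was 0.855. Added up, the 8 genes had a mean of 0.291 in *agl62* seeds and 4.29 in WT seeds, from 1 count against 13 to 17 counts. The ratio of these sums was 0.0678, with a 95% counting interval of 0.00114 to 0.417, and *ARF14* made up 81.1% of the WT sum. The interval leaves out the spread between libraries, and the difference between the genotypes was not tested over libraries, since *ARF14* in WT seeds can be made in 4 ways.

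None of the 8 genes reached the filter used for all genes, an average of the 2 means of at least 10. The 2-fold threshold on the log2 ratio was therefore passed by 0 of the 8 in either direction. The background among the 19898 genes past the filter was 2.97% (590 genes) at least 2-fold lower in *agl62* and 2.47% (492 genes) at least 2-fold higher, with a median log2 ratio of 0.01. With no filter *ARF14* alone of the 8 counted as lower, beside 4.62% of 24985 genes with reads. Over the whole table, 21019 genes had a WT mean above that of *ARF14*, or 84.1% of genes with reads in at least 1 genotype.

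The other ARF genes were abundant in the same libraries, at like levels in the genotypes. All 15 were past the filter, and none of them passed the 2-fold threshold in either direction. Their log2 ratios had a median of 0.07 and ran from -0.18 to 0.51. Summed over these 15 genes, the means came to 86910 in *agl62* seeds and 83419 in WT seeds. The 8 chromosome 1 genes made up 0.000335% of the summed ARF level in *agl62* seeds and 0.00514% in WT seeds.

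Among the repressor-type relatives, *ARF9* had a mean of 829 in *agl62* seeds and 582 in WT seeds, a log2 ratio of 0.51. *ARF2*, which limits growth of the integuments and seed size, stood at 32700 in *agl62* seeds and 32600 in WT seeds. *ARF1* had a mean of 3770 in *agl62* seeds and 3730 in WT seeds. *ARF18* and *ARF11* had log2 ratios of 0.27 and 0.20, *ARF3*, a patterning gene of the gynoecium, 0.07, and its close relative *ARF4* -0.18. The activators *ARF5*, *ARF6*, *ARF7*, *ARF8* and *ARF19* had log2 ratios between 0.07 and 0.20. Those of *ARF10*, *ARF16* and *ARF17*, whose transcripts are cut by miR160, lay between -0.14 and 0.02.

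Per kilobase of exon, *ARF4* was the lowest of the 15, at 67.0 normalized counts per kb in *agl62* seeds and 75.9 in WT seeds. *ARF14* stood at 0.16 per kb in *agl62* seeds and 1.91 in WT seeds, so *ARF4* was 39.7-fold above *ARF14* in WT seeds. *ARF20* had 0.419 per kb in WT seeds. For the 6 genes at 0 in both genotypes, the limit that 0 counts allow was 0.469 to 1.28 per kb in *agl62* seeds and 0.577 to 1.57 per kb in WT seeds, highest for the short *ARF23*. These limits are 3 counts over the libraries of a genotype. *ARF4* was at least 52.3-fold above the limit of each of the 6 genes in *agl62* seeds and at least 48.3-fold in WT seeds. These folds hold against the limits and not against true levels. The whole exon length was used, without correction for windows that have copies elsewhere.

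**Figure D4:**
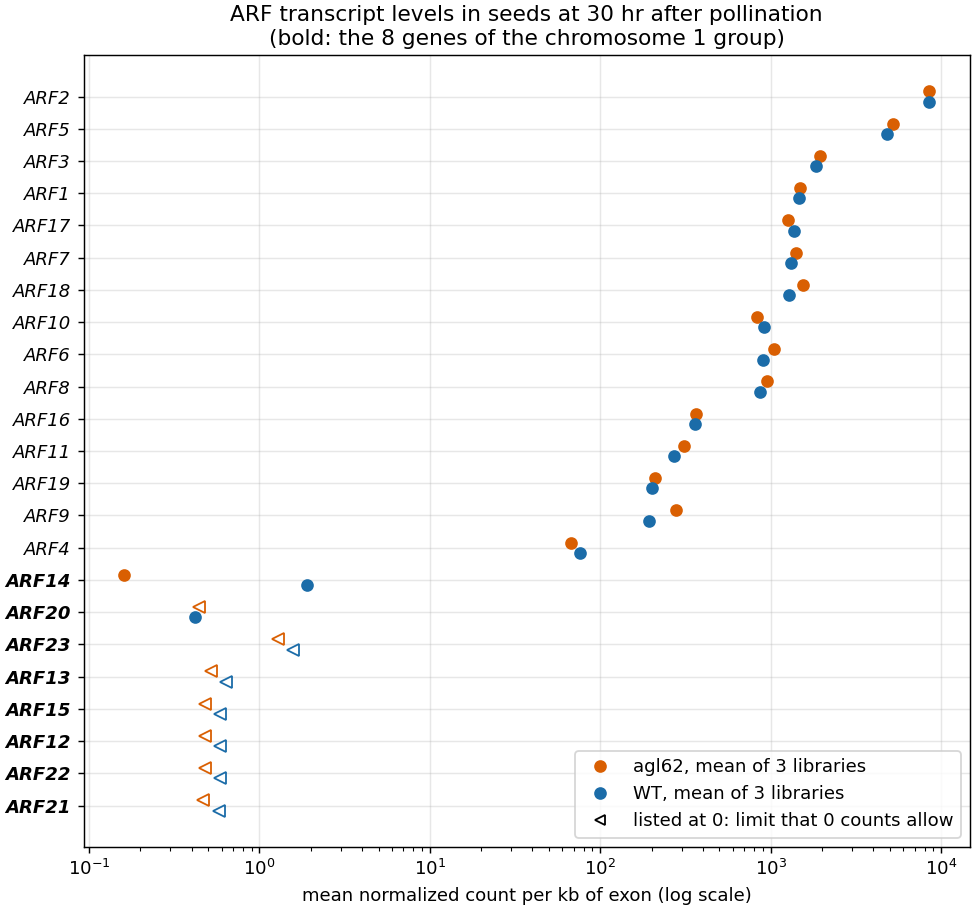
Mean normalized count per kb of exon, on a log axis, for all 23 ARF genes, with *agl62* above WT in each row and open triangles at the limit that 0 counts allow. The 8 chromosome 1 genes (bold) lie under 2 per kb, whereas the lowest of the 15 others, *ARF4*, lies at 67.0 in *agl62* and 75.9 in WT.

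Transcripts of the TIR1/AFB receptors and of most Aux/IAA genes were present too. All 6 TIR1/AFB receptor genes were past the filter, with log2 ratios from -0.10 to 0.22 and none past 2-fold. Of 29 Aux/IAA genes, 24 were past the filter and none was past 2-fold in either direction, with a median log2 ratio of -0.12 and a range from -0.89 to 0.43. *IAA15* was the 1 Aux/IAA gene listed at 0 in both genotypes.

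Genes that lie between *ARF13* and *ARF14* gave the setting of the group. Of 146 such genes other than the members, 59 (40.4%) were at 0 in both genotypes, including 27 of 100 protein-coding genes and 30 of 42 pseudogenes (71.4%). The share of protein-coding neighbours at 0, 27%, is below the 75% of the 8 ARF genes and above the 10.6% of all protein-coding genes. The 75% includes *ARF23*, which is at 0 and lies outside this interval. Past the filter were 60 neighbours. In *agl62*, 3 were at least 2-fold lower and 1 was at least 2-fold higher, and the log2 ratios had a median of -0.02. *HDG10* (AT1G34650), a homeodomain gene of the HD-ZIP IV family, had a mean of 10.7 in *agl62* seeds and 107 in WT seeds, a log2 ratio of -3.21. AT1G35537, annotated as a defensin-like gene, had a mean of 18.5 in *agl62* seeds and 102 in WT seeds, a log2 ratio of -2.40. The pseudogene AT1G35130 had a mean of 32.5 in *agl62* seeds and 79.4 in WT seeds, and the pseudogene AT1G34250 one of 56.1 in *agl62* seeds, against 0 in WT seeds. A gene annotated opposite *ARF14*, AT1G35545, overlaps it by 1184 bases and was at 0 in both genotypes; whether the counting used strand is not given in the sources used here.

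**Figure D5:**
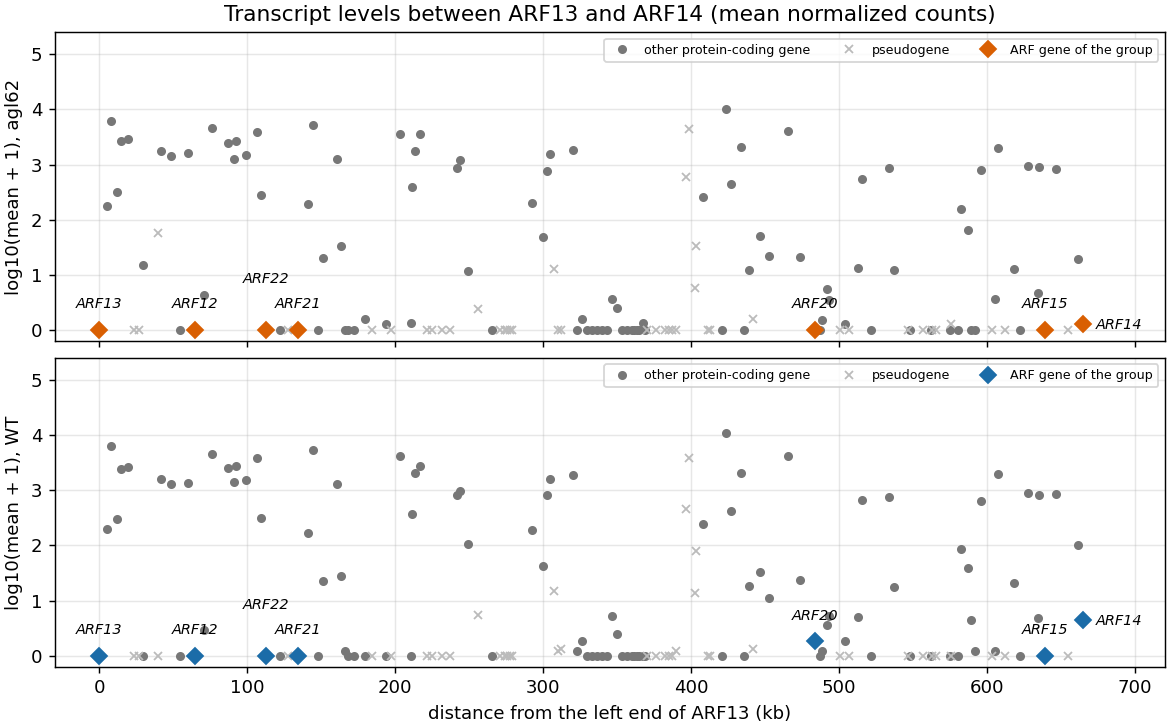
Level of each gene, as log10 of the mean normalized count plus 1, against its distance in kb from the left end of *ARF13*, in *agl62* (top) and WT (bottom), for 7 of the chromosome 1 ARF genes (diamonds), 100 other protein-coding genes (dots) and 42 pseudogenes (crosses). The ARF genes lie at or near 0 among neighbours that reach 10200 in *agl62* and 10800 in WT.

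The upstream sequence of the 8 genes was searched for 3 motifs on both strands of the 1000 bases before the coding start. TGTCTC, the auxin response element that ARF proteins bind, was found in 1 of the 8 (*ARF23*), against 42.3% of 26698 protein-coding genes. TGTCGG, a variant that ARF proteins bind strongly, was found in none of the 8 and in 15.1% of all genes. The CArG box bound by many MADS-domain proteins was found in 1 of the 8 (*ARF22*) and in 7.66% of all genes. A match is a description of letters and not of binding.

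The labels and the tissue were checked with genes outside the group. *AGL62* had a mean of 1.81 in *agl62* seeds and 410 in WT seeds, or 0.441% of WT. Of 18 endosperm markers, 16 were past the filter, with a median log2 ratio of -1.16. The filter is on the average of the 2 means, so passing it does not show presence in both genotypes. *ZOU* passed with 68.3 in *agl62* seeds and 0.326 in WT seeds, and *HDG9* with 7.57 in *agl62* seeds and 360 in WT seeds. The 18 means summed to 4335 in *agl62* seeds and 4110 in WT seeds, but without *HDG3*, the most abundant, the other 17 summed to 1105 in *agl62* seeds and 2730 in WT seeds. Of those past the filter, 9 were at least 2-fold lower and 3 at least 2-fold higher in *agl62*. *AGL90*, at 9.4 in *agl62* seeds and 0 in WT seeds, was not past the filter. None of 12 seed coat markers passed 2-fold, with sums of 240025 in *agl62* seeds and 250467 in WT seeds. The 8 embryo markers, all with reads, summed to 491 in *agl62* seeds and 152 in WT seeds, and without *LEC1* the other 7 to 166 in *agl62* seeds and 114 in WT seeds. Past the filter were 6 of them, with a median log2 ratio of 0.41, 2 at least 2-fold higher and none 2-fold lower. Not past it were *FUS3*, at 12.4 in *agl62* seeds and 0.242 in WT seeds, and *DRN*, at 1.89 in *agl62* seeds and 3.4 in WT seeds. The sums were, for 5 egg cell markers, 231 in *agl62* seeds and 190 in WT seeds, and, for 8 markers of green silique tissue, 91820 in *agl62* seeds and 64110 in WT seeds. The part of these shifts in the few counts of *ARF14* and *ARF20* was not tested.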

How the data were processed

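RNA of 6 libraries, 3 per genotype, was sequenced as 100 bp paired ends from TruSeq libraries. The authors aligned reads to TAIR10 with TopHat, kept those that map uniquely and normalized counts with DESeq; versions, counting tool and annotation are not given in the sources used here. Deposited as signal are 2 columns, 1 per genotype, in which the authors averaged size-factor-normalized counts over the libraries and rounded to 3 digits. The other 4 columns hold the authors' own comparison (fold change, log2 of it, raw and adjusted p-values) and were not used. Means summed to 58421347 in *agl62* and 60412799 in WT.

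From the means were computed log2 ratios (*agl62* over WT, 1 added to each mean), counts of genes 2-fold apart whose means average at least 10, the whole counts behind low means, and 95% counting intervals (exact Poisson, and exact binomial for ratios). Without values of single libraries no model was fitted. Low-mean decomposition and window search were tested on simulated data. Of 32678 identifiers, 31912 matched RefSeq TAIR10.1, joined by locus identifier, which gave coordinates and sequences. Levels per kb use the exons of the transcript with the longest coding sequence. Coding sequences were aligned with MAFFT 7.526. The CArG box was searched by its letters on both strands. Python 3.11.15, numpy 2.4.6, pandas 2.3.3, scipy 1.17.1 and matplotlib 3.10.9 were used.

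Members and gene lists were chosen with earlier results of these data known. Named are all 8 members, *AGL62* and ARF genes related to *ARF1*, *ARF2* and *ARF9*. Auxin pathway genes and neighbours past the threshold are named too, at most 5 each by size. Genes named beside these (*IAA15*, *AGL90*, *HDG3*, *ZOU*, *HDG9*, *LEC1*, *FUS3*, *DRN*, *AT1G35545* and the other ARF genes) were chosen after their values were seen. Alternatives were another pseudocount, scaling, filter, fold threshold and window.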

Additional observations from a re-analysis of the deposited data

How the results depend on the processing

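With no filter on low values, 1 of the 8 genes (*ARF14*) counted as at least 2-fold lower in *agl62* and 0 as higher. None of the 8 reached the filter, an average of at least 10, so every setting that kept or raised it was bound to give 0. These were the main setting, an average of at least 50, a pseudocount of 10 and a threshold of 1.5-fold. Over all genes, those lower numbered 590, against 1154 with no filter, 324 at 50, 504 with a pseudocount of 10, and 1032 at 1.5-fold. Those higher numbered 492, against 1375 with no filter, 198 at 50, 324 with a pseudocount of 10, and 1260 at 1.5-fold. The log2 ratio of *ARF14* was -1.80, -0.39 with a pseudocount of 10, -3.58 with none, -1.78 with columns scaled to equal totals and -1.80 with the median of all genes set to 0, so its size depends on the pseudocount. The median share of a gene's windows present elsewhere was 3.64%, against 26.9% with windows of 50 bases and 43.3% with up to 2 mismatches. The summed levels, 0.291 in *agl62* and 4.29 in WT, were bound to be the same without *ARF23*, which was at 0 in both genotypes. No paired analysis was possible because only means over the 3 libraries of each genotype were given; leaving out a replicate was not run for the same reason. The limit used for the 6 genes at 0, 3 counts over the summed relative depth of the 3 libraries, is a mean of 0.855 in *agl62* and 1.05 in WT.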
